A study of Mus musculus with 12 samples.

Results

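Gene expression was compared between knockout and control mouse embryonic stem cells after 3 days of tamoxifen, in 2 arrays of each, which are 4 of the 12 arrays of the series. All cells carried Roninflox/flox, that is, both copies of Thap11, the gene for the protein Ronin, were flanked by loxP sites. The knockout cells carried in addition CreERT2, a Cre recombinase that enters the nucleus when tamoxifen binds it, and the control cells did not. Cells of both genotypes were plated at 100000 per 10 cm2 and received 0.25 uM tamoxifen. The remaining 8 arrays were 2 of each genotype on day 1.5 and on day 6. Day 3 lay before the split of the cultures, which was on day 4. The promoter that drives CreERT2, and whether each line was a single clone, are not given in the sources used here. Since CreERT2 was present in the knockout cells alone, effects of the recombinase or of the cell line cannot be told apart from effects of losing Thap11. Every gene with a probe set of its own entered the comparison, 18194 genes in all, each by the probe set that was brightest over the 12 arrays.

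Ronin belongs to the THAP family of zinc finger proteins. It binds a long DNA element close to the start of genes together with Hcfc1, a large scaffold that brings chromatin enzymes to promoters, and the core of that element is shared with the zinc finger protein ZNF143. In embryonic stem cells Ronin is known for a role in self-renewal and for targets in translation, mitochondria and metabolism. Its target Mmachc encodes the enzyme that strips the ligand from vitamin B12 on entry into the cell.

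RNA was hybridised to Affymetrix Mouse Genome 430 2.0 arrays, and the values were RMA intensities on a linear scale. A log2 difference of 1 is a doubling of intensity, and a gene was called when its limma p-value, adjusted over all 18194 genes, was under 0.05. The labels leave unstated whether replicate arrays stem from independent cultures, and the spread behind each p-value may therefore be technical. All 4 arrays of day 3 stood somewhat apart from the others. Their median intensity was 44.36 to 44.72 against 42.37 to 43.04 on the other arrays, and the 18S rRNA probe sets averaged 8.03 to 8.78 in log2 intensity on the other arrays. On day 3 that average was 9.63 in control and 9.52 in knockout for replicate 1, and 10.44 and 10.39 for replicate 2, so it went with the replicate number. Its part in the results was not tested. The log2 ratio of the 3 prime over the 5 prime Gapdh probe sets was 0.294 and 0.298 in the day 3 controls, 0.228 and 0.235 in the day 3 knockout and 0.144 to 0.203 elsewhere. The same ratio for Actb was 0.823 and 0.921 in the day 3 controls, within the 0.749 to 0.954 of the other days, and 0.722 and 0.733 in the day 3 knockout, below it. Probe sets for markers of embryonic stem cells summed to similar intensities on the control arrays (46040 and 48800) and on the knockout arrays (47360 and 48420) of day 3. Of 9 markers of fibroblasts or feeder cells 0 were called, and 8 lay on every array below 111.1, the median intensity of all genes. The 9 summed to 357.1 and 382.2 in the day 3 controls and 353.9 and 385.7 in the knockout. On a wider list of 23 such markers 3 were higher and 2 lower, and 1 and 5 against the other controls.

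The control cells of day 3 also differed in expression from the control cells of the other days. Set against the control arrays of days 1.5 and 6, taken as the mean of both days, they differed at 5753 genes (31.6%), being lower at 3890 (21.4%) and higher at 1863 (10.2%). With quantile normalization 44.0% of the calls were higher, in place of 32.4%. Because the control sets differ, calls below are given against the day 3 controls and set beside those against the controls of days 1.5 and 6, which are called the other controls. The comparisons share the knockout arrays, so a value that recurs in both is not an independent repeat. The comparison with the other controls also crosses days, so that changes of day 3 common to both genotypes enter it.

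Thap11 had intensities of 1279 and 1290 in the day 3 controls and of 110.2 and 92.72 in the knockout. Its level in the knockout was 7.90% of the day 3 control level, a log2 difference of -3.67 ± 0.083 (SE, n = 2 and 2, adjusted p = 1.4e-07). The other controls ranged from 1181 to 1382, so the fall was as large against them (-3.66). Where the probe set lies relative to the deleted part is not given in the sources used here. Hcfc1 was at 2414 and 2358 in control and at 2273 and 2588 in knockout, and the arrays overlapped (adjusted p = 0.87). Ash2l, a core subunit of the histone H3 lysine 4 methyltransferases that bind Hcfc1, rose from 3898 and 3688 to 5194 and 5313 (log2 difference 0.47, adjusted p = 0.00021). It was higher against the other controls too (0.29, adjusted p = 0.0014). Of 14 measured genes in the list of Ronin, Hcfc1 and their partners, Thap11 included, 2 were higher and 3 lower on day 3. Against the other controls 1 was higher and 5 were lower. Among the lower genes was Rbbp5, against both control sets (-0.20, adjusted p = 0.041, and -0.29, adjusted p = 0.0039). Wdr5 and Kmt2a were not called against either. In bulk RNA, a change in the number of cells that express a gene and a change in RNA per cell cannot be told apart.

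Of all genes, 4250 were called on day 3 (23.4%). In the knockout 2425 were higher (13.3%) and 1825 were lower (10.0%). Most of these differences were small, with a median size of 0.36, while 101 genes were at least 2-fold higher (0.555%) and 93 at least 2-fold lower (0.511%). The median log2 difference of all genes was 0.03. When only the day 3 arrays entered the fit, 2506 genes were called, and without knockout replicate 1 there were 2727.

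The calls were then set beside those made with the other controls as the reference. Against the other controls 1821 genes were higher (10.0%) and 2816 lower (15.5%), with 31 (0.170%) and 139 (0.764%) of them by at least 2-fold. These 4637 calls (25.5%) became 2675 without knockout replicate 1 and 2914 without knockout replicate 2. With each array centred on its median 1082 genes were higher and 4201 lower, so that the higher share of the calls was 20.5% in place of 39.3%. Of the 1825 genes lower against the day 3 controls, 996 (54.6%) were also called lower against the other controls and 71 (3.89%) were called higher. Of the 2425 genes that were higher against the day 3 controls, 741 (30.6%) were called higher and 249 (10.3%) were called lower. Both knockout arrays lay below all 6 control arrays at 1149 of the 1825 lower genes, and above them at 1034 of the 2425 higher genes, where 22.3% of all genes tested had both knockout arrays beyond the 6 controls in either direction. By the suffix of their names, some probe sets named here hold probes that may match more than 1 transcript, of the same or of other genes. Which transcripts was not checked, so their values are uncertain in that respect: those of Cubn, Galm, Pramel6, Pramel7, Elp6, Cox7c, Gtf2h4, Snx17, Vldlr, Shmt2, Fen1, Bub1b, Ldhb, Lamp2, Ccn1, Acta2, Myof, Vat1, Gbp2 and Dnmt3l. On the 4 arrays of day 3 alone, knockout and control did not overlap at 57.2% of all genes, which include all 4250 called. Counts of gene groups below are to be read beside the shares of all genes. Those were 13.3% higher and 10.0% lower against the day 3 controls, and 10.0% and 15.5% against the other controls.

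**Figure D1:**
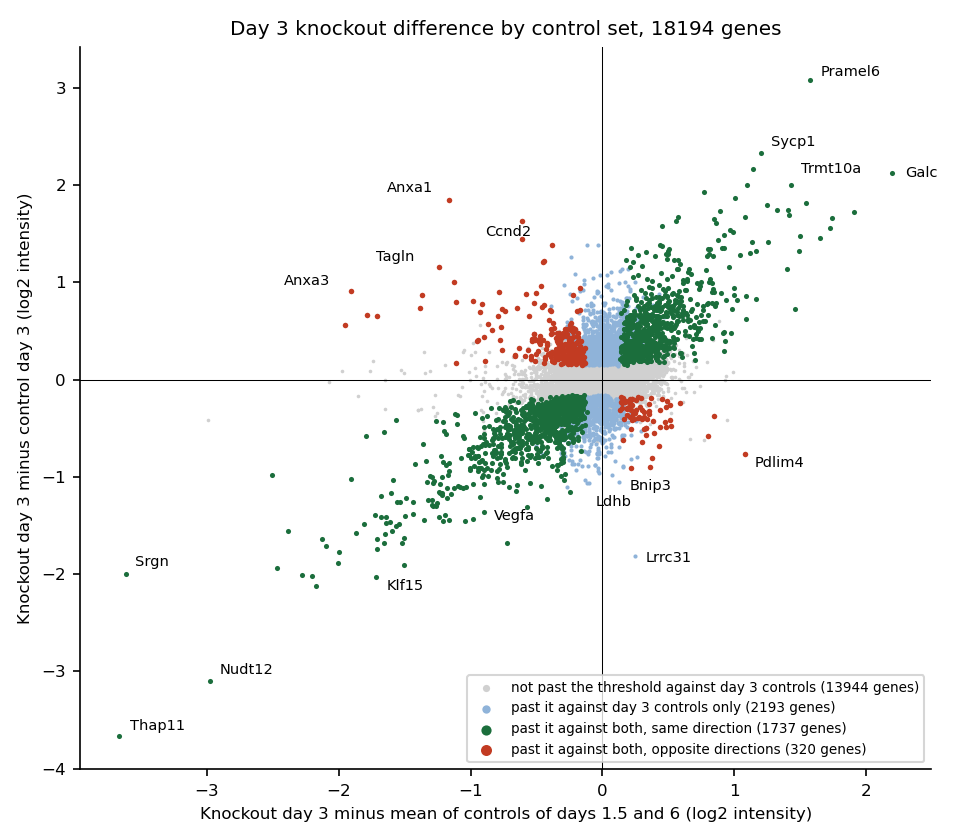
Each point is 1 of 18194 genes, with the log2 difference between the day 3 knockout and the day 3 controls on the vertical axis and that from the mean of the other controls on the horizontal axis. The 1737 genes called in the same direction against both lie along the diagonal, with Thap11 and Nudt12 lowest, and the 320 called in opposite directions lie in the upper left and lower right, such as Anxa1 and Anxa3 in the upper left; the knockout arrays are in both axes.

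Promoters were searched for the core of the element bound by Ronin. It was found in 11.1% of the promoters of genes lower on day 3 and in 5.63% of those of genes higher, so most promoters of either kind lacked it. The core of that element, ACTACA followed by any 2 bases and TCCC, was searched on both strands from 250 bases before to 50 bases after the gene start in the RefSeq promoters of GRCm38.p6, which covered 14369 of the 18194 genes. It overlaps the ZNF143 element, so the letters do not tell the factors apart. The following stretches are printed 5 prime to 3 prime along the gene's own strand, with the match in capitals. Zc4h2 and Ube2d1 are among the 10 largest falls, and no match was found for the other genes of those 10. Mmachc, Ctu1 and Cox7c are falls in cobalamin, tRNA and respiratory chain genes, and the Poglut2 promoter is shared with Bivm. Fyco1 and Zfp189 rose, and the Eif2b4 promoter is shared with Snx17, which moved the other way.
Zc4h2, chrX:95658490-95658519, minus strand: tggccttctGGGAGTTGTAGTtctagaggc
Ube2d1, chr10:71285288-71285347, minus strand: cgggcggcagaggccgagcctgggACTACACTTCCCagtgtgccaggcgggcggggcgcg
Mmachc, chr4:116708386-116708433, minus strand: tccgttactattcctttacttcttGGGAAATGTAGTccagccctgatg
Ctu1, chr7:43671975-43672030, plus strand: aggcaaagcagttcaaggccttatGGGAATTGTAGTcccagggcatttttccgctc
Cox7c, chr13:86046881-86046940, minus strand: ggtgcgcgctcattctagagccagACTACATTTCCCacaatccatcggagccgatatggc
Poglut2, chr1:44118916-44118975, minus strand: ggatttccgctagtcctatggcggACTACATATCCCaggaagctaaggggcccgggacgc
Fyco1, chr9:123851886-123851915, minus strand: aggcatgccGGGAGTTGTAGTccgcgcgcg
Zfp189, chr4:49521130-49521175, plus strand: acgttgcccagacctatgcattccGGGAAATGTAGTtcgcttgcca
Eif2b4, chr5:31193201-31193260, minus strand: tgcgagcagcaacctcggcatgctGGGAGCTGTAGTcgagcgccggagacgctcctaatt

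The core was found in 563 of the 27025 RefSeq promoters (2.08%) and in 493 of the 14369 promoters of measured genes (3.43%). Among measured genes that were not called on day 3 it was in 220 of 10957 promoters (2.01%). Among genes lower in the knockout it was found in 164 of 1477 promoters (11.1%), and among genes higher in 109 of 1935 (5.63%). Restricted to genes called in the same direction against both control sets, the shares were 146 of 810 lower genes (18%) and 67 of 590 higher genes (11.4%). Of genes at least 2-fold lower against both, 27 of 59 had it (45.8%), and of those at least 2-fold higher against both, 1 of 18 (5.56%). By contrast, the core was in 1 of the 248 promoters of genes called in opposite directions against the control sets (0.403%). These shares are a description of the promoters and were not tested.

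Among the 493 measured genes with the core, 164 were lower and 109 higher on day 3, against 1313 and 1826 of the 13876 measured genes with a promoter that lacked it. The shares by place of the match are given as a description. Where the centre of the nearest match was 50 to 100 bases before the start, 34.5% of 168 genes were lower and 17.3% higher. Where it was in the last 25 bases before the start, 29.0% of 69 genes were lower and 37.7% higher, and in the first 50 bases after it, 25.8% of 31 were lower and 38.7% higher. The match of Zc4h2, which fell, is centred 5 bases after the start, and that of Fyco1, which rose, on the base before it.

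**Figure D2:**
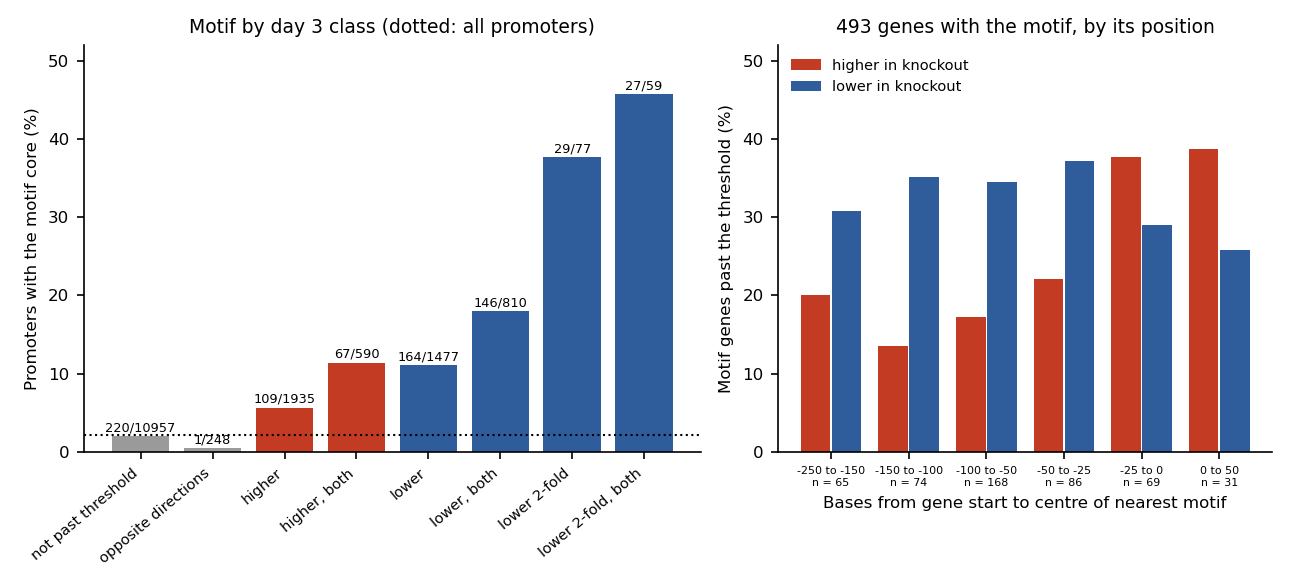
Left, the share of promoters that hold the motif core in genes grouped by their day 3 call, with the number of genes with the core over the number with a promoter above each bar and a dotted line at the 2.08% of all RefSeq promoters; "both" means called in the same direction against both control sets. Right, the share of the 493 genes with the core that were higher or lower in the knockout, by the distance in bases from the gene start to the centre of the nearest match; higher genes outnumber lower ones in the bins that begin at -25 and at 0.

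Several matches lay in the searched stretches of 2 genes on opposite strands, though not always between the 2 gene starts. At Swt1, for example, the shared match is centred 41 bases after the start. In 47 such pairs of measured genes that share a match, both genes were lower in 8, both were higher in 7 and they moved in opposite directions in 2. In 14 pairs 1 gene was higher and the other not called, in 11 pairs 1 was lower and the other not called, and in 5 neither was called. The pairs named here were chosen after their values were seen. Poglut2, an O-glucosyltransferase of the endoplasmic reticulum, fell from 990 and 974.1 to 357.6 and 355.2 (log2 difference -1.46, adjusted p = 2.9e-07), and Bivm, across the same promoter, fell from 292 and 267.1 to 116 and 117.7 (-1.26, adjusted p = 1.9e-05). Zfp189, a zinc finger gene, rose from 46.82 and 44.15 to 108.6 and 111.8 (1.28, adjusted p = 3.7e-05). Its partner Mrpl50, a mitochondrial ribosomal protein gene, was at 867.2 and 762.2 in control and 1020 and 1030 in knockout (0.33, adjusted p = 0.0056), but at 0.04 against the other controls (adjusted p = 0.65), and it was not called from the day 3 arrays alone. Both members of the first pair thus stood below all 6 control arrays, and Zfp189 and Mrpl50 above them.

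Opposite directions across a shared match were seen at Snx17 with Eif2b4 and at Psmd10 with Atg4a. Snx17, a sorting nexin of endosomes, was lower (4920 and 4922 in control, 3803 and 3591 in knockout, log2 difference -0.41, adjusted p = 0.0016). Eif2b4, a subunit of the exchange factor that recharges initiation factor eIF2, was higher (1621 and 1604 against 2676 and 2517, 0.69, adjusted p = 5.3e-05). Psmd10, a chaperone of proteasome assembly, was lower (656.8 and 594.9 against 510.2 and 469.8, -0.35, adjusted p = 0.0047, and not called from the day 3 arrays alone with a term for the replicate number). Atg4a, a protease of autophagy, was higher (157.8 and 140.9 against 257.3 and 246.3, 0.76, adjusted p = 7.2e-05). All 4 of these genes kept their call and direction against the other controls.

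Thap11 was 1 of the 10 largest falls ranked over both control sets. Nudt12, a peroxisomal enzyme that cleaves NADH, was at 99.43 and 111.1 in the day 3 controls and at 13.31 and 11.37 in the knockout, 11.7% of the control level (log2 difference -3.09 ± 0.088, adjusted p = 2e-07). Ccnb1ip1, an E3 ligase needed for meiotic crossing over, was at 777.5 and 779.4 in control and 179.7 and 178.5 in knockout (-2.12 ± 0.054, adjusted p = 1.8e-07). Ube2d1, a ubiquitin-conjugating enzyme, was at 289 and 311.8 against 73.25 and 75.91 (-2.01 ± 0.088, adjusted p = 1.6e-06). At each of these genes the knockout arrays lay far below every control array of any day, as they did at Zc4h2 (-2.02, adjusted p = 2.1e-06), a zinc finger gene of neural development. In the family of Ube2d1, 5 of 28 measured ubiquitin-conjugating enzymes were lower, 2 were higher and 21 were not called, and against the other controls 5 were lower and 0 higher.

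The remaining large falls included Srgn and Cubn, from a list of extraembryonic endoderm genes in which 6 of 23 were higher and 5 lower. Srgn, the core protein of serglycin, went from 235.8 and 236.5 to 67.5 and 51.74 (-2.0 ± 0.11, adjusted p = 4.8e-06). Cubn, the receptor of the visceral endoderm for the vitamin B12 carrier, went from 108.8 and 118.8 to 32.01 and 27.65 (-1.93 ± 0.087, adjusted p = 1.8e-06). The Srgn controls of day 3 were themselves far below the other controls, which lay between 652.1 and 804.9. Galm, which interconverts the forms of galactose (-1.88, adjusted p = 8.7e-07), the imprinted growth restrainer Grb10 (-1.77, adjusted p = 2e-07) and the transcription factor Klf15 (-2.03, adjusted p = 1.2e-05) completed the list. Grb10 was at 1531 and 1554 in control and 458.2 and 445.9 in knockout.

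Mmachc, the cobalamin gene, was at 454.8 and 457.9 in the day 3 controls and at 133.2 and 146.8 in the knockout, 30.7% of control (log2 difference -1.71 ± 0.079, adjusted p = 2e-06). Against the other controls, at 587.1 to 605.3, the difference was -2.10. Of 12 measured genes of cobalamin uptake and use, 4 were lower (33.3%) and 2 higher (16.7%), against 10.0% and 13.3% of all genes. Against the other controls 4 were lower and 1 higher.

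The rises that held against both control sets included genes that were already apart on day 1.5. Galc, the lysosomal enzyme that degrades galactosylceramide, was at 24.19 and 18.04 in the day 3 controls and at 88.99 and 93.57 in the knockout (2.13 ± 0.21, adjusted p = 0.00014). On day 1.5 its knockout arrays already stood at 117.2 and 103.2, and the difference between the days was not called (adjusted p = 0.37). The noncoding transcript Gt(ROSA)26Sor went from 263.9 and 262.4 to 839.3 and 901.7 (1.73 ± 0.10, adjusted p = 9.1e-06), after 1107 and 1002 in the knockout of day 1.5. Prex2, an exchange factor for Rac, was at 12.42 and 15.92 against 38.29 and 51.63 (1.66 ± 0.19, adjusted p = 0.00025). The other probe sets of Galc and Prex2 were not called.

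Ubd, which encodes the ubiquitin-like protein FAT10, was higher on day 3 than in any control but less so than on day 1.5. It was at 32.36 and 25.47 in the day 3 controls and at 94.58 and 75.68 in the knockout (1.56 ± 0.20, adjusted p = 0.00055). The knockout of day 1.5 was at 270.4 and 294.1, and the difference between the effects of these days was called (-1.97, adjusted p = 0.0023).

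Further genes were higher in the day 3 knockout than in the day 3 controls. Trmt10a, a methyltransferase for guanosine in tRNA, went from 494.7 and 466 in the day 3 controls to 1889 and 1955 in the knockout (2.00 ± 0.057, adjusted p = 2e-07). Ubxn8, which anchors the segregase p97 at the endoplasmic reticulum, went from 164.7 and 176.9 to 578.6 and 625.4 (1.82 ± 0.069, adjusted p = 8.4e-07). Calcoco2, an autophagy receptor for bacteria, went from 1150 and 1226 to 3912 and 3750 (1.69 ± 0.062, adjusted p = 7.7e-07). All 3 genes stood above the 6 control arrays. Efhc2, an EF-hand gene of cilia (1.74, adjusted p = 2e-06), and Fyco1, which links autophagosomes to kinesin (1.47, adjusted p = 1.4e-05), did so too.

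**Figure D3:**
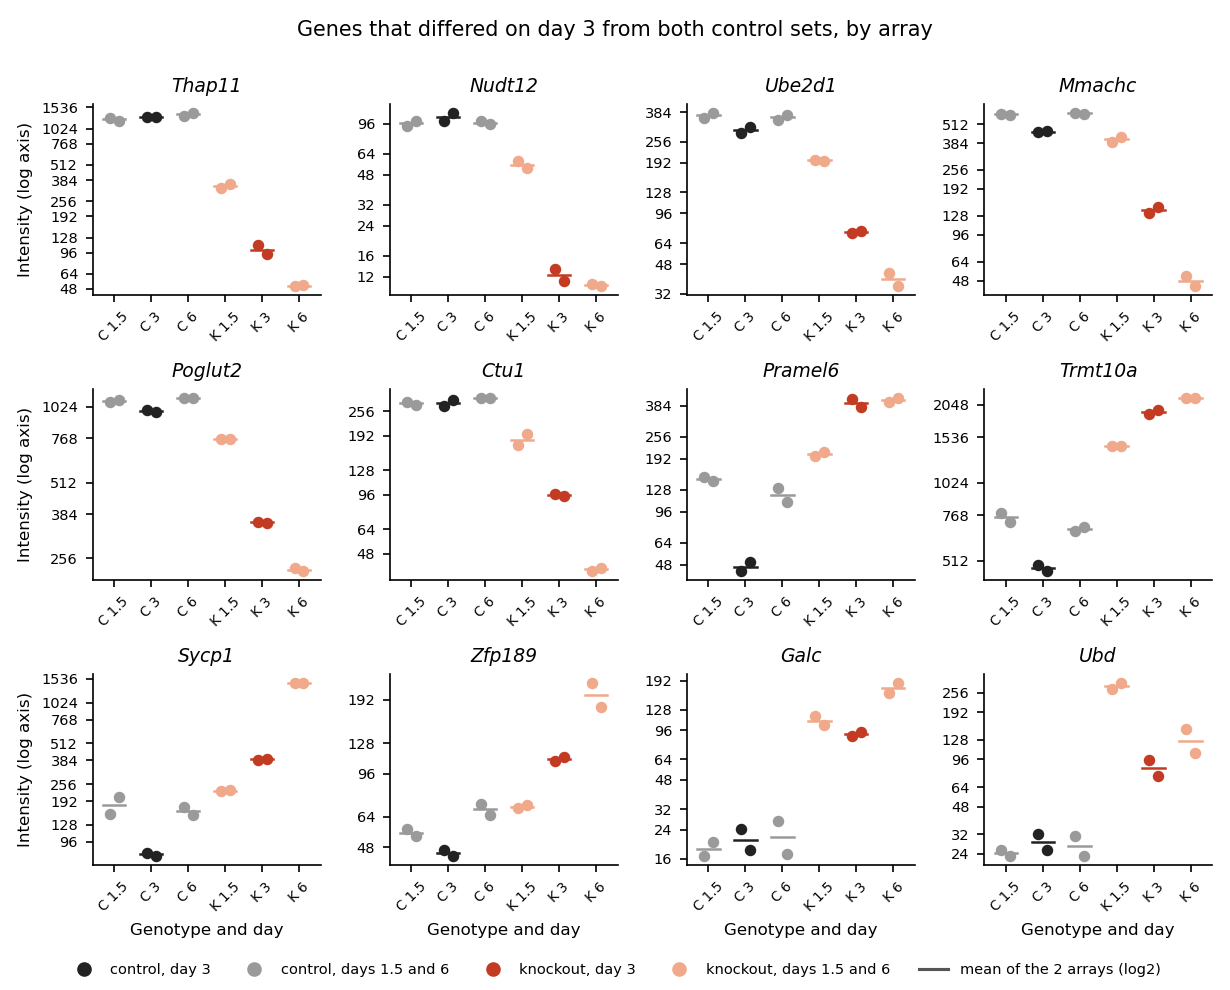
Intensity of 12 genes on all 12 arrays, on log axes, with C for control and K for knockout and the day beside it; points are arrays and lines are means of the 2 arrays on the log2 scale. The day 3 knockout arrays of Thap11, Nudt12, Ube2d1, Mmachc, Poglut2 and Ctu1 lie below all 6 control arrays, and those of the other 6 genes lie above them; Galc and Ubd were already high in the knockout of day 1.5.

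Of all genes tested, Pramel6, of a family active in the inner cell mass and in germ cells, had the largest rise against the day 3 controls. Pramel6 was at 44.09 and 49.81 in the day 3 controls and at 417.1 and 378.6 in the knockout, 847% of control (3.08 ± 0.097, adjusted p = 2.9e-07). Pramel7 went from 56.98 and 47.88 to 250.3 and 220 (2.17 ± 0.088, adjusted p = 1.3e-06). The size depended on the reference, because the day 3 controls were below the other controls (109.3 to 152 for Pramel6), and against those the differences were 1.58 for Pramel6 and 1.14 for Pramel7. By the suffix of their names, the probe sets of both genes hold probes that may match more than 1 transcript. Which transcripts these are was not checked, so a rise of one gene may not be separable from a rise of the other. Of 10 measured genes of the PRAME-like and 2-cell-like group 3 were higher, among them Usp17la, a deubiquitinase gene of a repeated family (0.95, adjusted p = 0.00067), and 1 was lower, and 3 and 2 against the other controls.

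Germline and meiosis genes were divided on day 3. Of 23 measured genes 11 were higher and 4 lower, and 8 and 2 against the other controls, with 7 higher against both. Sycp1, the transverse filament of the synaptonemal complex, went from 79.9 and 75.13 to 386.4 and 395.3 (2.33 ± 0.12, adjusted p = 3.6e-06). Slc25a31, the ADP/ATP carrier of sperm, went from 43.69 and 52.21 to 123 and 121 (1.35, adjusted p = 1.4e-05), and Stk31, a germ cell kinase, from 100.8 and 105.4 to 254.3 and 260.4 (1.32, adjusted p = 8.1e-06). Sycp3, the axial element of the same complex, was lower than in the day 3 controls, at 569.7 and 602.1 against 1097 and 1091 (-0.90, adjusted p = 2.5e-05). It was nevertheless higher than in the other controls, at 412.3 to 513.6 (0.36, adjusted p = 0.0018), so that its direction depended on the reference.

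Pluripotency factors showed no common direction. Pou5f1, which encodes Oct4, was at 10980 and 11400 in the day 3 controls and at 11870 and 11800 in the knockout (0.08, adjusted p = 0.27, called only with the eBayes option of a trend and robust prior). Nanog was at 6736 and 6992 against 6749 and 6679 (-0.03, adjusted p = 0.74), and Sox2 at 7971 and 8866 against 7848 and 8232 (-0.06, adjusted p = 0.65). The arrays of the genotypes overlapped for Nanog and Sox2 and not for Pou5f1. Of 28 genes of naive and core pluripotency 8 were higher and 4 lower against the day 3 controls, and 7 and 6 against the other controls. Gbx2 was 0.88 higher against the day 3 controls and 0.58 lower against the other controls, while Nr5a2, an activator of Pou5f1, was 0.63 higher against the former (adjusted p = 0.00016) and not called against the latter.

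Genes of the primed epiblast, the later pluripotent state, were higher at 6 of 12 against the day 3 controls and lower at 0. Against the other controls 3 were higher and 1 was lower. Lef1, a Wnt-responsive factor, went from 96.68 and 103 to 163.9 and 177 (0.77, adjusted p = 0.00014), and N-cadherin, Cdh2, from 91.89 and 104.8 to 167.2 and 166.7 (0.77, adjusted p = 0.00026). In the other controls Lef1 lay between 138.7 and 204.9 and Cdh2 between 207.4 and 242.6. The day 3 controls were therefore the low group for both genes. Sox1, a marker of early neural cells, was higher against both control sets, by 1.06 (adjusted p = 8.1e-05) and 0.53 (adjusted p = 0.002). Of 13 early neural markers 1 was higher and 2 lower against either control set. Of 12 mesoderm markers 1 was higher and 0 lower against the day 3 controls, and 0 were called against the others.

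The genes of the integrated stress response, which are switched on by Atf4 when initiation factor eIF2 is phosphorylated, were mostly low in the knockout. Of 29 measured, 17 were lower and 1 higher, with a median of -0.33 against 0.03 for all genes. Against the other controls 21 were lower and 0 higher, and 14 were lower against both. Nupr1, a stress-induced chromatin protein, went from 1584 and 1415 to 745.1 and 742 (-1.01 ± 0.061, adjusted p = 1e-05). Pck2, which makes phosphoenolpyruvate in mitochondria, went from 1493 and 1315 to 738.9 and 736.8 (-0.93, adjusted p = 4.7e-05), and Vldlr, a lipoprotein receptor, from 167.2 and 165.1 to 78.56 and 96.33 (-0.93, adjusted p = 0.00021). Shmt2, the mitochondrial serine hydroxymethyltransferase, went from 2851 and 2694 to 1770 and 1706 (-0.67, adjusted p = 3.7e-05), and its promoter holds the motif core. The day 3 arrays of these 4 genes did not overlap, which also held for all 4250 called genes and for 57.2% of all genes.

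Of the translation genes, 8.16% of cytosolic ribosomal protein genes were called on day 3, where 23.4% of all genes were. The shares of aminoacyl-tRNA synthetases (28.6%) and tRNA modification genes (29.4%) were near that of all genes. Of 47 translation initiation factors 4 were higher and 3 lower (14.9% called), and 4 and 13 against the other controls. Of 49 cytosolic ribosomal protein genes 2 were higher, 2 lower and 45 not called, and against the other controls 1 was higher and 4 lower. The single large change was Rpl39l, a paralogue of Rpl39 that is abundant in testis, which rose from 909.2 and 895.6 to 2233 and 2172 (1.29 ± 0.048, adjusted p = 8.4e-07). Of 35 aminoacyl-tRNA synthetases, which load tRNA with amino acids, 7 were lower and 3 higher, and against the other controls 21 were lower and 0 higher. Lars, the leucyl enzyme, went from 4296 and 4173 to 3028 and 3076 (-0.47, adjusted p = 0.00024).

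Among tRNA modification genes, 4 members had large changes. Trmt10a and Elp6, a subunit of the Elongator complex that modifies the wobble uridine, rose, the latter from 312.7 and 309.6 to 991 and 994.6 (1.67 ± 0.051, adjusted p = 2.9e-07). Ctu1, which adds sulphur to the same uridine, fell from 272.4 and 293.7 to 97.42 and 94.46, 33.9% of control (-1.56 ± 0.070, adjusted p = 1.8e-06). Pus3, a pseudouridine synthase, fell from 202.9 and 208.7 to 89.93 and 89.16 (-1.20 ± 0.051, adjusted p = 1.5e-06). These 4 had the same direction against the other controls. The group as a whole did not, with 8 of 34 higher and 2 lower against the day 3 controls and 3 higher and 17 lower against the other controls. The day 3 controls were below the other controls at 21 of the 34 genes, and at 21.4% of all genes.

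Transcription and ribosome assembly genes also differed between references, as did all genes, from 13.3% higher and 10.0% lower to 10.0% and 15.5%. Of 45 genes of ribosome biogenesis and RNA polymerase I, 16 were higher and 1 lower against the day 3 controls, while 3 were higher and 13 lower against the other controls. Polr1a, the large subunit of RNA polymerase I, was higher against both (0.65, adjusted p = 4.8e-05, and 0.40, adjusted p = 0.00033). Of 39 genes of RNA polymerases II and III and basal factors, 11 were higher and 3 lower against the day 3 controls, and 1 was higher and 12 lower against the other controls. Polr2d, a subunit of RNA polymerase II, was 0.42 higher against them (adjusted p = 0.00067) and 0.05 higher against the others (adjusted p = 0.50). Gtf2h4, a subunit of the repair and initiation factor TFIIH with the motif core in its promoter, fell from 1397 and 1550 to 756.3 and 785.5 (-0.93, adjusted p = 4.1e-05) and was lower against both. Of 33 core spliceosome genes 8 were higher and 0 lower against the day 3 controls, and 2 and 4 against the others.

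Of 82 genes of oxidative phosphorylation, the mitochondrial respiratory chain and ATP synthase, 9 were lower and 6 higher, with a median of 0.01, and 8 and 7 against the other controls. Cox7c, a small subunit of cytochrome c oxidase, went from 252.7 and 271 to 84.91 and 93.1 (-1.56 ± 0.13, adjusted p = 4.6e-05). Uqcr10, a subunit of the bc1 complex, went from 4260 and 3929 to 2121 and 2233 (-0.91 ± 0.067, adjusted p = 2.7e-05). The promoters of both genes hold the motif core. Timm21, of the protein import channel, fell by 0.77 on the log2 scale (adjusted p = 3.5e-05), where 2 of 27 import genes were lower and 1 was higher, and 8 and 2 against the other controls.

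The mitochondrial ribosome was lower at 5 genes and higher at 21 of 76 against the day 3 controls, and lower at 17 and higher at 1 against the other controls. Mrpl54 went from 602.5 and 602.5 to 289.9 and 318.5 (-0.99 ± 0.060, adjusted p = 1e-05), Mrpl24 from 3748 and 3523 to 2080 and 2231 (-0.75, adjusted p = 5.6e-05) and Mrpl34 from 2126 and 2090 to 1360 and 1452 (-0.58, adjusted p = 0.00015). All 5 falls were also called against the other controls. Of the 21 rises 1 was, and 2 of the mitochondrial ribosome calls turned to the opposite direction. The day 3 controls were below the other controls at 35 of the 76 genes and above them at 0. Of all genes, 21.4% were below and 10.2% above. Of 44 mitochondrial carriers 10 were higher and 9 lower, and 6 and 10 against the other controls, with Slc25a30 (-0.71, adjusted p = 0.00052) and the iron carrier Slc25a37 (-0.70, adjusted p = 0.0015) lower against both control sets.

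**Figure D4:**
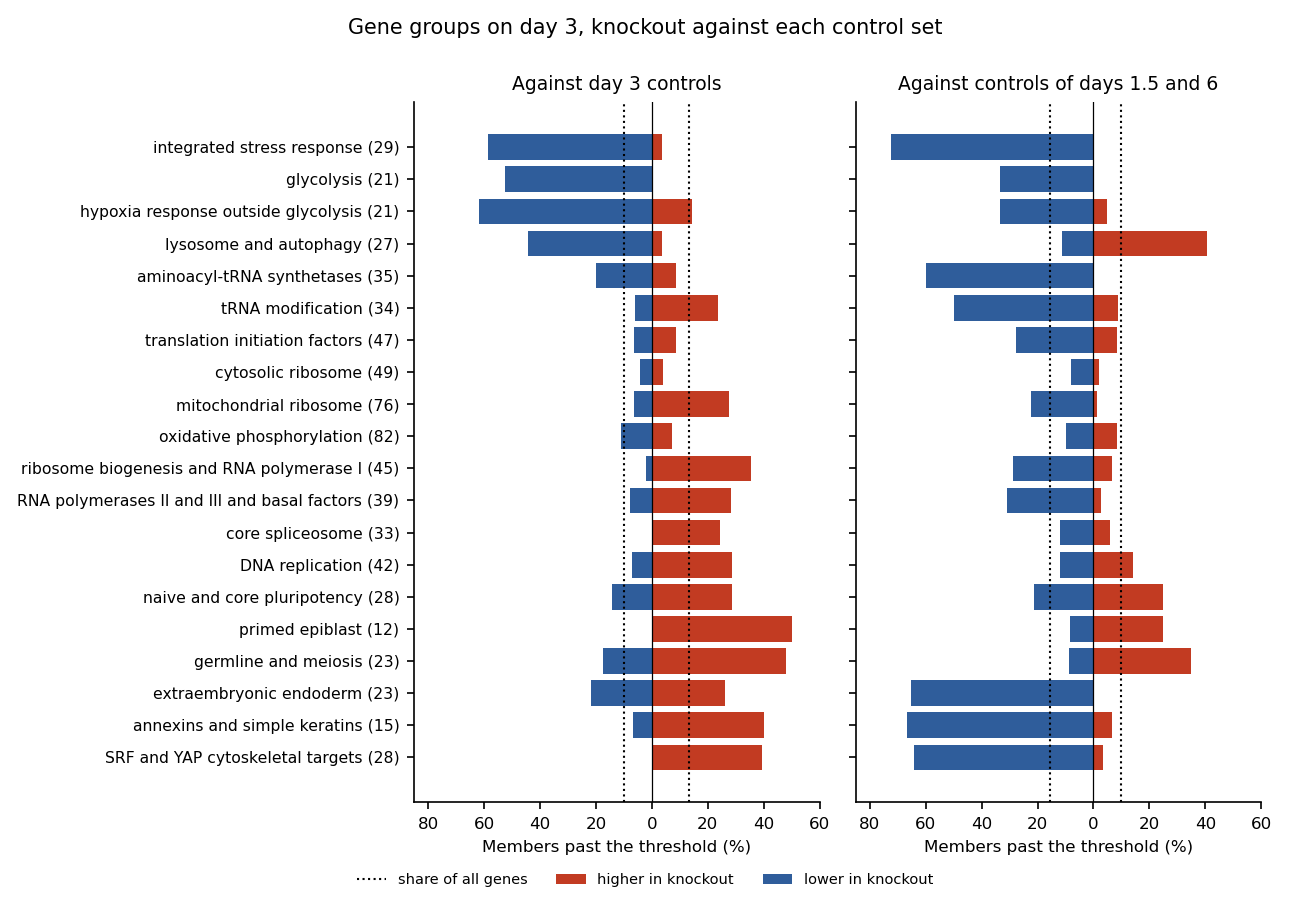
For 20 groups of genes, with the number measured in brackets, the share of members called higher (right of 0) and lower (left of 0) in the day 3 knockout, against the day 3 controls in the left panel and against the controls of days 1.5 and 6 in the right panel; dotted lines give the shares among all 18194 genes. Integrated stress response genes are mostly lower in both panels, whereas lysosome, mitochondrial ribosome, annexin and cytoskeletal genes have more higher calls in one panel and more lower calls in the other.

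Cell cycle genes had a few strong members. Ccnd2, a D-type cyclin, and Myc were higher than in the day 3 controls, Ccnd2 from 98.33 and 95.34 to 259.5 and 247.5 (1.39 ± 0.062, adjusted p = 1.8e-06) and Myc from 283.6 and 282 to 476.5 and 497.6 (0.78 ± 0.054, adjusted p = 2e-05). Both were lower than in the other controls, by 0.39 and 0.52, which ranged from 290.5 to 383.9 for Ccnd2 and from 671.8 to 719.5 for Myc. Cdkn2a, the inhibitor locus of p16 and p19Arf, was higher against both (0.63, adjusted p = 0.00087, and 1.09, adjusted p = 1.4e-05). Of 27 genes of the G1 and S phases 9 were higher and 3 lower, and 5 and 6 against the other controls.

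For replication, 12 of 42 genes were higher and 3 lower, and 6 and 5 against the other controls. The higher genes included the loading factor Cdc6 (0.58, adjusted p = 5.5e-05) and the flap nuclease Fen1 (0.44, adjusted p = 0.00066), which were higher against both control sets. For mitosis, 6 of 30 genes were higher and 1 lower, while against the other controls 2 were higher and 8 lower. The day 3 controls were below the other controls at 13 of the 30, and at 21.4% of all genes. The gene lower against the day 3 controls was Bub1b, the checkpoint kinase BubR1, at 2174 and 2027 in control and 1240 and 1264 in knockout (-0.75 ± 0.056, adjusted p = 3e-05). Espl1, the protease separase, was higher, at 2320 and 2109 against 3794 and 3539 (0.73 ± 0.064, adjusted p = 6.7e-05). Both promoters hold the motif core, and both genes kept their direction against the other controls.

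The p53 pathway had 3 of 26 genes higher and 5 lower on day 3, and 4 and 5 against the other controls. Cdkn1a, the p21 inhibitor, was at 1529 and 1304 in control and at 1104 and 1102 in knockout (-0.36, adjusted p = 0.012), a call that was lost without control replicate 1 (-0.24) and without either knockout array. Xpc, a sensor of DNA damage, was lower against both control sets (-0.49, adjusted p = 0.0035, and -0.46, adjusted p = 0.0024). On day 6 the same list had 19 genes higher and 2 lower (17.2% and 15.3% of all genes on that day), against 1 and 5 on day 1.5 (5.93% and 3.98%). Apoptosis regulators were higher at 3 and lower at 4 of 23 against either control set.

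Many glycolysis and hypoxia genes were lower in the knockout than in the day 3 controls. Of 21 glycolysis genes 11 were lower and 0 higher against the day 3 controls, and 7 and 0 against the other controls. The day 3 controls exceeded the other controls at 10 and were below at 3, where the shares of all genes were 10.2% and 21.4%. Ldhb, a lactate dehydrogenase, was at 6097 and 5990 in the day 3 controls and at 3081 and 3147 in the knockout (-0.96 ± 0.054, adjusted p = 6.7e-06), which is within 3111 to 3220 of the other controls but for 1 array (-0.02, adjusted p = 0.76). Pfkp, a phosphofructokinase, was lower against both (-0.45, adjusted p = 0.00035, and -0.31, adjusted p = 0.0014), and Pdk1, which restrains pyruvate oxidation, against the day 3 controls (-0.50, adjusted p = 0.0015).

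Of 21 further hypoxia genes 13 were lower and 3 higher against the day 3 controls, and 7 and 1 against the others. Vegfa, the vascular growth factor, was at 352.3 and 367.1 in control and 142.6 and 138.2 in knockout (-1.36 ± 0.057, adjusted p = 1.4e-06), below all 6 control arrays. P4ha2, a collagen prolyl hydroxylase, was also lower against both (-0.56, adjusted p = 0.0014, and -0.90, adjusted p = 3.9e-05). By contrast Bnip3, a receptor for mitophagy, was at 1723 and 1817 in the day 3 controls, at 768.9 and 950.4 in the knockout and at 761.9 to 806.8 in the other controls. Ddit4, an inhibitor of mTORC1, had the same order (-0.75, adjusted p = 3.5e-05, against 0.07, adjusted p = 0.35). For both of them the day 3 controls were the group that stood apart.

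Calls of lysosome and autophagy genes differed between references. Of 27 genes 12 were lower and 1 higher against the day 3 controls, while 3 were lower and 11 higher against the other controls. The day 3 controls were above the other controls at 15 and below at 0, where the shares of all genes were 10.2% and 21.4%. Hexa, a lysosomal hexosaminidase, was at 3581 and 3640 in the day 3 controls, at 2338 and 2352 in the knockout and at 1890 to 2423 in the other controls. Its call was -0.62 against the former (adjusted p = 4.7e-05) and 0.16 against the latter (adjusted p = 0.031). Lamp2, a protein of the lysosomal membrane, was lower against the day 3 controls only (-0.75, adjusted p = 0.00013, and -0.03, adjusted p = 0.81). In this group 2 genes were called in opposite directions, 3 were lower against both, and Galc, described above, was the single gene higher against both.

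Many annexin, keratin and cytoskeletal genes were lower in the day 3 controls than in the other controls, at 11 of 15 and 21 of 28 measured, and at 21.4% of all genes. Of 15 annexins and simple keratins, 6 were higher and 1 lower against the day 3 controls and 1 higher and 10 lower against the other controls, and 8 were not called against the day 3 controls. Anxa1, a phospholipid-binding protein, was at 77.66 and 68.09 in the day 3 controls, at 280 and 243.7 in the knockout and at 465.7 to 721.9 in the other controls. Its log2 difference was 1.84 ± 0.089 against the day 3 controls (adjusted p = 2.5e-06) and -1.16 against the others (adjusted p = 1.1e-05). Anxa2 (0.81 and -0.98), Anxa3 (0.91 and -1.91), Krt8 (0.87 and -1.36) and Krt18 (0.74 and -1.38) had the same pair of opposite calls, and these 5 were all the opposite calls of the group.

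Targets of SRF and YAP, which respond to actin and cell tension, were higher at 11 of 28 and lower at 0 against the day 3 controls, and higher at 1 and lower at 18 against the other controls. Of the 28, 8 were called in opposite directions and 17 were not called against the day 3 controls. Tagln, an actin-binding protein, was at 174.6 and 187.9 in the day 3 controls, at 399 and 409.5 in the knockout and at 744.8 to 1270 in the other controls (1.16 ± 0.064, adjusted p = 5.6e-06, and -1.24). Ccn1, a matrix protein (1.00 and -1.12), and Acta2, an actin of smooth muscle (0.66 and -1.78), were likewise called in opposite directions. Myl9, a myosin light chain, was 1.38 higher against the day 3 controls (adjusted p = 2.8e-05) and not called against the others (-0.12, adjusted p = 0.36). Myof, a membrane repair protein, was the exception, at 43.7 and 39.04 in control and 151.9 and 150.5 in knockout, above all controls (1.87 and 1.01). Egr1, an immediate early gene, rose by 0.93 against the day 3 controls (adjusted p = 2e-05) and was not called against the others (adjusted p = 0.079), whereas Dusp1, a phosphatase of the same class, was lower against both (-0.61 and -0.63).

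Extraembryonic endoderm genes were lower in the day 3 controls than in the other controls at 20 of 23, and all genes at 21.4%. Against the day 3 controls the knockout was higher at 6 and lower at 5, and against the other controls it was higher at 0 and lower at 15. The genes higher against the day 3 controls included Lrp2 (0.72, adjusted p = 0.00047), Sox7 (0.66, adjusted p = 0.00055) and Sparc (0.64, adjusted p = 6e-05). Against the other controls Sox7 was lower (-0.56, adjusted p = 0.00065), and Lrp2 and Sparc were not called. Besides Srgn and Cubn, Dab2, an endocytic adaptor of the same tissue, was lower against both, at 57.61 and 46.5 in the knockout, 100.7 and 110.3 in the day 3 controls and 170.9 to 230.1 in the other controls (-1.03, adjusted p = 0.00014, and -1.91). Of 6 markers that define this tissue 2 were higher and 0 lower, and they summed to 240.2 and 276.2 in the day 3 controls, 311.4 and 326.6 in the knockout and 452.5 to 490.7 in the other controls. The part of such cells in these results was not tested.

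The reverse pattern, with the day 3 controls high, was shown by Pdlim4 and Vat1. Pdlim4, an actin-associated adaptor, was at 467.9 and 464.7 in the day 3 controls, at 285.6 and 262.6 in the knockout and at 113.3 to 143.1 in the other controls (-0.77 ± 0.071, adjusted p = 8.7e-05, and 1.08). Vat1, a reductase-like protein of synaptic vesicles, was called in the same manner (-0.49 and 0.48). Dnmt3l, the cofactor of de novo DNA methylation, was higher against the day 3 controls and lower against the others (0.48 and -0.33).

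**Figure D5:**
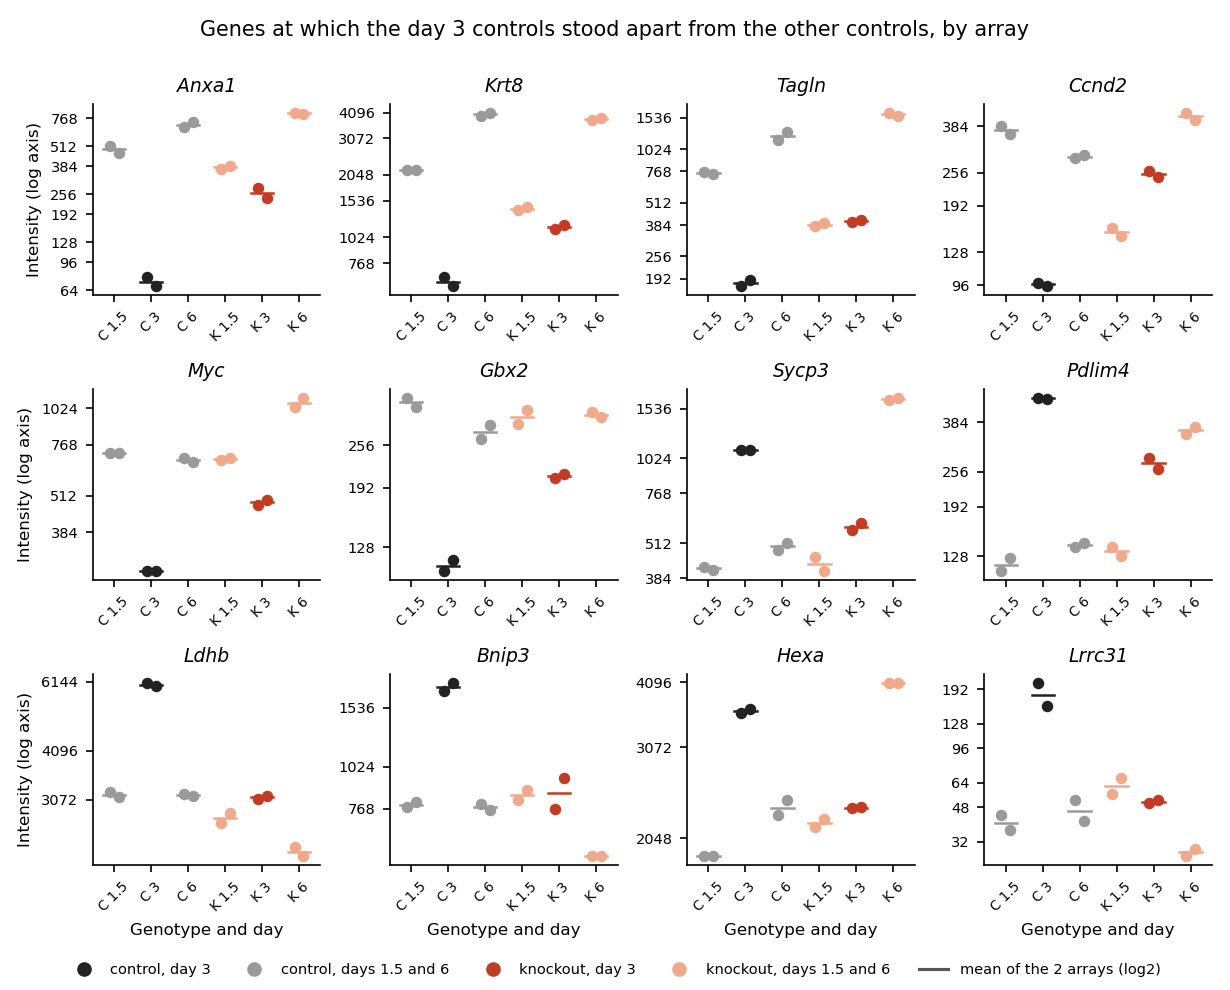
Intensity of 12 genes on all 12 arrays, on log axes, with C for control and K for knockout and the day beside it; points are arrays and lines are means of the 2 arrays on the log2 scale. In each panel the day 3 controls stand apart from the controls of days 1.5 and 6, below them for Anxa1, Krt8, Tagln, Ccnd2, Myc and Gbx2 and above them for Sycp3, Pdlim4, Ldhb, Bnip3, Hexa and Lrrc31.

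Of 38 Wnt genes 7 were higher and 2 lower, and 6 and 7 against the other controls. The share called against the day 3 controls was 23.7%, near the 23.4% of all genes. The ligand Wnt5a was at 12.22 and 15.55 in control and 41.19 and 27.51 in knockout (1.29 ± 0.24, adjusted p = 0.004) and the feedback inhibitor Notum was at 204.1 and 196.7 against 371.1 and 338.4 (0.82, adjusted p = 8.4e-05). Of 29 interferon-stimulated genes 5 were higher and 1 lower (20.7% called), and 7 and 4 against the other controls. The gene lower against the day 3 controls was Ifit2, an inhibitor of viral translation whose promoter holds the motif core, at 126.3 and 105.8 in control and 31.44 and 38.28 in knockout (-1.74 ± 0.15, adjusted p = 6.2e-05), which was below all 6 control arrays.

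The knockout effect on day 3 was also set against that of the other days. On day 1.5 itself 9.91% of genes were called and on day 6 32.5%. The day 3 effect differed from that of day 1.5 at 2723 genes (15.0%), being more positive on day 3 at 1387 (7.62%) and more negative at 1336 (7.34%). From day 3 to day 6 the effect differed at 2991 genes (16.4%), more positive on day 6 at 1399 (7.69%) and more negative at 1592 (8.75%). The arrays of day 3 enter both differences. Cbr4, a reductase of mitochondrial fatty acid synthesis with the motif core in its promoter, was above control on day 1.5 (570.6 and 586.1 against 447.1 and 438.8) and below it on day 3 (189.6 and 174.2 against 486.4 and 459.1). The difference of the effects was -1.76 (adjusted p = 4.1e-05). Nudt12 had most of its fall between these days, from 57.54 and 52.82 in the knockout of day 1.5, and its effect did not differ further on day 6 (adjusted p = 0.67). Mmachc went on falling, to 51.09 and 44.13 on day 6, and Iftap, a gene named for intraflagellar transport, from 172.9 and 181 on day 3 to 46.38 and 41.98.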

How the data were processed

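RNA from 12 samples of mouse embryonic stem cells was measured on Affymetrix Mouse Genome 430 2.0 arrays. The deposited values are linear intensities, made by RMA per the submitters' processing notes, with no version given in the sources used here. The deposited intensities were taken to log2 for all tests. Of 45101 probe sets, 34958 have 1 gene symbol in the platform annotation, 932 several and 9211 none, and the brightest probe set over the 12 arrays stood for each of 18194 genes. Group means of all 6 groups were fitted with limma 3.58.1 in R 4.3.3 (lmFit, eBayes), so that all arrays share 1 estimate of the spread, and p-values were adjusted by Benjamini-Hochberg over all genes at a threshold of 0.05. On simulated data the fit recovered 34% of genes changed 1.25-fold, 76% at 1.5-fold, 96% at 2-fold and 100% at 4-fold, with 8 false calls. The simulated arrays had independent noise and equal group means except at the changed genes. Those were far fewer than the 4250 genes called on day 3, and no shift of the day 3 controls was included. The percentages are therefore a check of the fit and no estimate of its recovery in these data. Arrays limit precision by their number, 2 a group. Genes were named by a rule: the 10 largest rises and falls called against both control sets, the 5 largest per direction called in opposite directions against them, up to 4 called members with the largest change in each gene list, Thap11, Hcfc1, Pou5f1, Nanog, Sox2 and Mmachc always, and the largest differences between days; not all genes that the rule names are printed, and exceptions are named in the text. The members and lists were chosen with earlier results of these data known. Alternatives covered normalization, probe set choice, dim genes, spread estimates, each array of a comparison left out (for differences between days, those of day 3), the replicate number as a block and the other controls as the reference. The motif search used RefSeq promoters of GRCm38.p6.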

Additional observations from a re-analysis of the deposited data

Results flagged for a closer look

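The knockout effect differed between day 3 and day 1.5 at 2723 genes by a test of the difference itself. It was more negative on day 3 at Lrrc31 (-2.44), Nudt12 (-2.29), Ubd (-1.97), Thap11 (-1.83) and Cbr4 (-1.76), and more positive at Ccnd2 (2.67), Pramel6 (2.62), Spink1 (2.33), Acta2 (2.27) and Anxa1 (2.22), all on the log2 scale. Between day 6 and day 3 the effect differed at 2991 genes. It was more negative on day 6 at Iftap (-2.15), Mmachc (-1.96), Gbp2 (-1.95), Gtf2h4 (-1.81) and Nxf3 (-1.77), and more positive at Sycp3 (2.64), Sycp2 (2.40), Pdlim4 (2.12), St6galnac3 (2.11) and Taf7l (2.08). The day 3 controls enter every one of these differences. Lrrc31, Ccnd2, Spink1, Acta2, Anxa1, Gbp2, Nxf3, Sycp3 and Pdlim4 have a day 3 difference of the opposite sign against the other controls.

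Among 10092 probe sets without a single gene symbol, which no comparison above uses, 563 (5.58%) passed the threshold on day 3, 287 of them higher and 276 lower, and 206 had the same call against the other controls.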

How the results depend on the processing

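With only the day 3 arrays in the fit, 2506 genes were called (1384 higher, 1122 lower), and with the replicate block added 1751 (964 and 787). Over genes, deviations of same-numbered arrays correlated at -0.057 between the groups of day 3, which does not meet the bar for pairing, and at 0.173 at most between groups, although the 18S level went with the number on day 3. The replicate block over all arrays gave 4111 calls. Leaving out 1 array of day 3 gave 2727 to 3396 calls (1545 to 2026 higher, 1182 to 1548 lower), lowest without knockout replicate 1, and 1745 to 2430 for the difference from day 1.5. Against the other controls, leaving out 1 of the 6 arrays compared gave 2675 to 3969 calls (930 to 1504 higher, 1745 to 2465 lower), with 2675 and 2914 without knockout replicates 1 and 2 of day 3. Averaging all probe sets of a gene left 66 genes at least 2-fold higher, and 20 against the other controls. With the other controls as the reference 2816 genes were lower and 31 at least 2-fold higher; centring arrays on their median left 1082 higher there, 20.5% of calls against 39.3%, and quantile normalization made it 47.6%. The motif was in 14.6% of lower genes from the day 3 arrays, 18.5% with the block, 13.2% without control replicate 1, 11.8% to 14.6% with 1 array left out and 8.82% against the other controls; in higher genes it was in 8.42% with the block on the day 3 arrays. With the other controls as the reference the log2 difference turned, among genes called against at least 1 control set, at Nanog (0.26), Gbx2 (-0.58), Cdh2 (-0.44), Sycp3 (0.36), Ccnd2 (-0.39), Myc (-0.52), Bnip3 (0.12), Ddit4 (0.068), Hexa (0.16), Anxa1 (-1.16), Anxa2 (-0.98), Anxa3 (-1.91), Krt8 (-1.36), Krt18 (-1.38), Tagln (-1.24), Ccn1 (-1.12), Acta2 (-1.78), Myl9 (-0.12), Egr1 (-0.15), Pdlim4 (1.08), Vat1 (0.48), Dnmt3l (-0.33), Lrrc31 (0.25), Spink1 (-0.61), Gbp2 (-1.35) and Nxf3 (-0.17). The cause of these changes was not tested.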
